A study of Mus musculus with 12 samples.

Results

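The genes described here encode the mitochondrial respiratory chain and ATP synthase. They are the genes whose array symbol begins with Nduf, Uqcr, Cox4i, Cox5, Cox6, Cox7, Cox8 or Atp5, together with Sdha, Sdhb, Sdhc, Sdhd, Cycs and Cyc1. The array named 89 such genes, of which 82 were measured, among 10025 genes measured in all. A gene was measured where a probe had a detection p-value below 0.05 on at least 3 of the 12 arrays. The RNA came from regulatory T cells (Tregs), the Foxp3-expressing T cells that restrain immune responses, isolated from perigonadal fat and from spleen of chow-fed C57BL/6 mice. There were 4 groups of 3 arrays each. They were fat Tregs of Tbx21-flox, Foxp3-YFP-Cre mice, fat Tregs of Foxp3-YFP-Cre mice, spleen Tregs of Tbx21-flox, Foxp3-YFP-Cre mice, and spleen Tregs of Foxp3-YFP-Cre mice. Mice with the floxed gene are called knockout here and the others control. Tbx21 encodes T-bet, the transcription factor of type 1 immunity. The Cre recombinase is driven from the Foxp3 gene, so the floxed gene is targeted in Foxp3-expressing cells, and the controls carry the same Cre. Mouse age and the number of animals behind an array were not given in the labels, so p-values measure the spread between arrays, part of which may be technical.

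The respiratory chain passes electrons from NADH (complex I) and succinate (complex II) through complex III and cytochrome c to oxygen at complex IV, and pumps protons across the inner mitochondrial membrane. ATP synthase, also called complex V, lets the protons flow back and makes ATP. Most subunits are encoded in the nucleus and a few in the mitochondrial genome. Tregs are known for relying on oxidative phosphorylation more than conventional effector T cells do.

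Between 27.0% and 40.9% of probes were detected per array. Fat arrays resembled each other less than spleen arrays did, with Pearson correlations between arrays of one group of 0.823 to 0.842 in fat knockout and 0.771 to 0.844 in fat control, against 0.888 to 0.915 in spleen knockout and 0.881 to 0.908 in spleen control. The array names in the labels share a number among 4 arrays, 1 of each group, and this number is taken as the slide here. The last letter of the name is the same for every array of a group. An effect of slide position, if that is what the letter marks, and group therefore cannot be told apart. The Tbx21 probe gave log2 levels of 4.94 to 7.57 in fat knockout and 5.17 to 7.27 in fat control, and of 4.69 to 5.74 in spleen knockout and 4.54 to 5.19 in spleen control. These ranges overlapped in both tissues, and whether the probe lies in the deleted part is not known here, so it does not check the labels.

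Of the 82 genes, 73 were detected on all 12 arrays, 8 on 7 to 11 arrays and Cox7a1 on 3. The 7 genes that did not reach the filter were Cox4i2, Cox6a2, Cox6b2, Cox7b2, Cox8b, Cox8c and Ndufaf6. Apart from Ndufaf6, a complex I assembly factor, they are complex IV isoforms, several of them known from muscle, lung or testis. Cox6a2 was detected on 1 array and the others on 0 arrays. By function the measured genes were 35 complex I subunits, of which 6 are core subunits and 29 accessory ones, 7 complex I assembly factors, 4 subunits of complex II, 8 of complex III, cytochrome c, 11 of complex IV and 16 of ATP synthase. Ndufa4 was counted with complex IV, where the protein is now placed. Ndufs5-ps, counted with the accessory subunits, is annotated by RefSeq as a transcribed pseudogene, and its probe may share sequence with its parent gene.

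Respiratory chain and ATP synthase genes were mostly lower in fat than in spleen Tregs. The median level of the 82 genes was 9.07 to 9.13 on the 3 fat knockout arrays and 9.08 to 9.26 on the 3 fat control arrays, against 9.54 to 9.77 on the spleen knockout arrays and 9.55 to 9.84 on the spleen control arrays (log2 intensity). Every fat array lay below every spleen array, and the 2 genotypes of each tissue overlapped. With both genotypes averaged, 74 of the 82 genes (90.2%) had a fat minus spleen difference below 0, against 54.5% of all 10025 genes. The median difference was −0.41 on the log2 scale, which is 1.33-fold lower in fat, against −0.07 for all genes. It was −0.36, −0.52 and −0.37 on the 3 slides. The gap to all genes was smaller with a stricter filter (detection p below 0.01 on at least 6 arrays). All genes then had a median of −0.20, with 60.4% below 0. The respiratory chain and ATP synthase genes had −0.40, with 73 of 81 below 0. In bulk RNA of this kind, a lower level per cell and a smaller share of the cells that carry the transcript cannot be told apart.

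**Figure D1:**
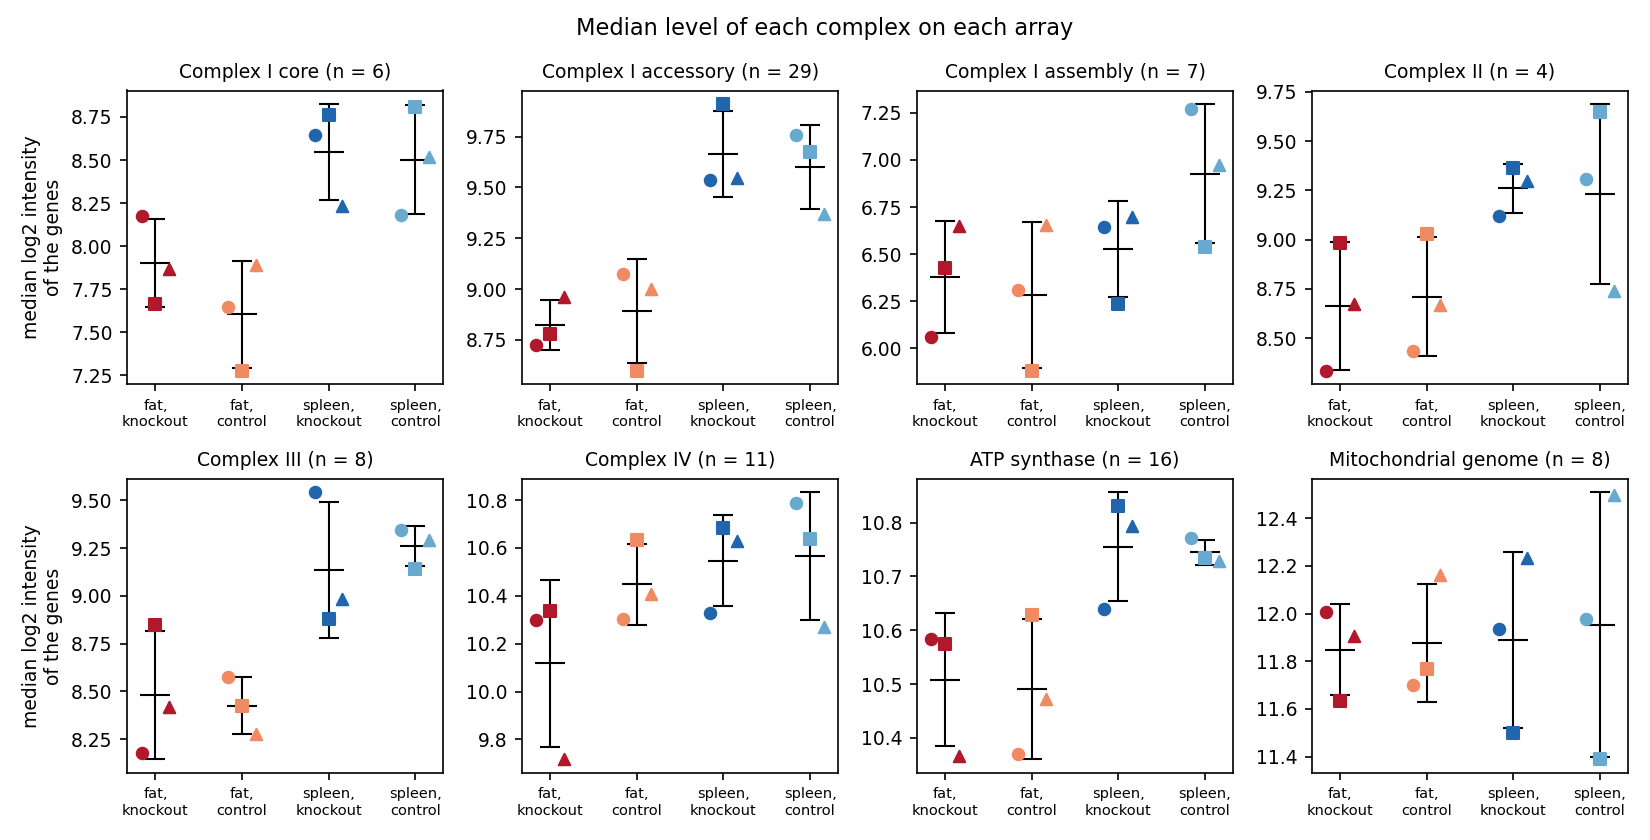
Median log2 intensity of the genes of each complex on each of the 12 arrays (1 point per array, 3 per group), with the fat groups left of the spleen groups and knockout left of control, and the mean and SD of the 3 arrays drawn as bars. The medians of the accessory subunits of complex I averaged 8.82 and 8.89 in the fat groups, against 9.66 and 9.60 in the spleen groups.

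Tests on single genes used limma across all 10025 genes, with Benjamini-Hochberg adjusted p below 0.05 as the threshold. In fat Tregs, 10 of the 82 genes were lower than in spleen Tregs and 0 were higher. That is 12.2% of these genes, against 8.41% of all genes called lower, 7.27% called higher and 15.7% called in either direction, so the number of calls alone does not set these genes far from the rest. At an unadjusted p below 0.05 the count was 32 of 82 (39.0%), against a lower share of all genes (3005 of 10025). On each slide, each genotype gives 1 pair of a fat and a spleen array. In all 6 of these pairs 31 of the 82 genes were lower in fat (37.8%) and 0 were higher, against 12.8% and 9.28% of all genes. All 6 fat arrays lay below all 6 spleen arrays for 10 of the 82 genes (12.2%), against 4.86% of all genes. The reverse was seen for 0 of the 82 and for 4.85% of all genes. With the slide as a block, 14 genes were called, the added ones being Atp5g2 (adjusted p = 0.038), Ndufa2 (0.049), Ndufab1 (0.024) and Ndufaf1 (0.049). The share of all genes called with the block is not set beside this count, so the gain is not by itself particular to these genes.

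These counts depend on how the arrays are scaled to each other. The values above come from quantile normalization. With each array scaled to its median alone, the difference of all genes moved to +0.06 and that of the 82 genes to −0.13, with 53 of 82 below 0. The array median was taken over all 45281 probes, of which 27.0% to 40.9% were detected per array. It therefore lies among probes that were not detected. Under that scaling none of the 10 lower calls held (adjusted p 0.058 for Ndufa6 to 0.498 for Ndufa9), although all 10 kept their sign, and Cycs (+0.95, adjusted p = 0.029) and Atp5d (+0.69, adjusted p = 0.047) were called higher in fat. With cyclic loess the 82 genes stood at −0.26, with 70 of 82 below 0, and all genes at +0.01. The calls of Ndufs7, Ndufa9, Ndufaf5, Uqcrh and Cox7a2l were lost under cyclic loess, which left 5. Leaving out 1 array gave between 5 calls (without spleen knockout replicate 1) and 12 (without fat control replicate 3 or spleen control replicate 3). The share of all genes called under each of these settings is not set beside the counts. A gain or loss of calls is therefore not by itself particular to these genes.

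**Figure D2:**
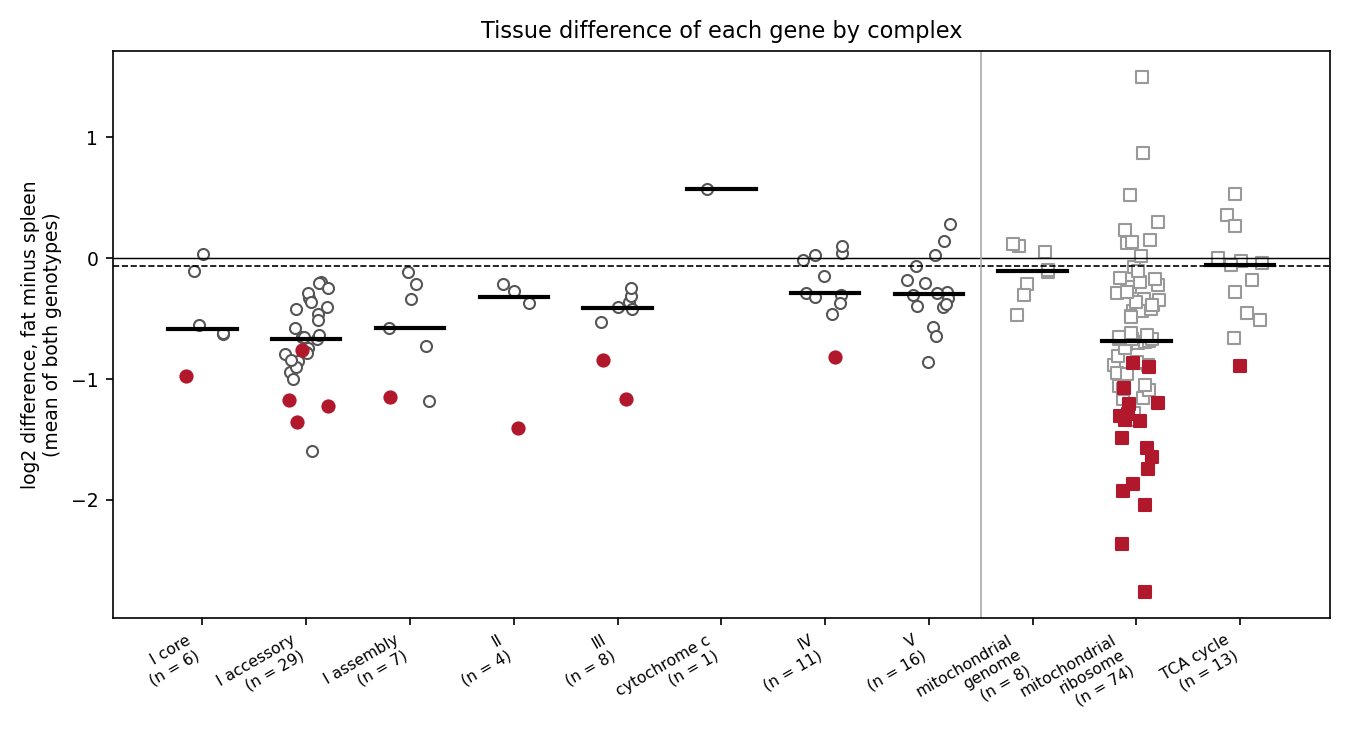
Log2 difference, fat minus spleen with both genotypes averaged, for each of the 82 genes by complex (circles) and for 3 other mitochondrial lists (squares). Filled red points passed the adjusted p of 0.05, thick bars are medians, and the dashed line is the median of all genes (−0.07). All 29 accessory subunits of complex I lie below 0, while complex IV and ATP synthase sit nearer the line.

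Complex I stood lowest, and whether it differed from the other complexes was not tested. Its 35 subunits had a median difference of −0.65 (1.57-fold lower in fat), 34 of 35 were below 0 and 17 were lower in all 6 pairs. The 29 accessory subunits, which surround and stabilise the catalytic arms, ranged from −1.60 to −0.20. The 6 core subunits, which bind NADH and carry the iron-sulphur clusters, had a median of −0.59. The subunits stayed below 0 on balance under the other scalings, at −0.50 with cyclic loess (32 of 35 below 0) and −0.34 with median scaling (29 of 35). The subunits that passed the test were Ndufb4, Ndufa6, Ndufs4, Ndufa9 and Ndufs7.

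Ndufb4, an accessory subunit of the membrane arm, had log2 levels of 9.02, 9.51 and 8.96 in fat knockout and 9.77, 9.18 and 8.57 in fat control. In spleen it had 10.29, 10.58 and 10.19 in knockout and 10.57, 10.52 and 10.19 in control. All fat arrays were below all spleen arrays, in both genotypes. The difference was −1.22 (SE 0.247, 2.33-fold lower in fat, adjusted p = 0.0060, limma).

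Ndufa6 encodes an accessory subunit of the LYR protein family. It had 6.93, 5.51 and 7.20 in fat knockout and 7.53, 7.19 and 6.85 in fat control, against 7.89, 8.32 and 8.07 in spleen knockout and 7.89, 8.55 and 8.63 in spleen control. Again no fat array reached a spleen array, although 1 fat knockout array lay well below the other fat arrays. The difference was −1.36 (SE 0.309, 2.56-fold lower in fat, adjusted p = 0.0113).

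Ndufs4, an accessory subunit needed for a stable NADH-binding module, had 8.69, 9.81 and 8.60 in fat knockout and 8.89, 8.39 and 9.27 in fat control, against 9.77, 10.38 and 9.99 in spleen knockout and 10.34, 10.46 and 9.76 in spleen control. A single fat knockout array reached above the lowest spleen arrays, and the remaining fat arrays lay below all of them. The difference was −1.17 (SE 0.284, 2.26-fold lower in fat, adjusted p = 0.0155). Its 4 probes gave differences of −1.17, −1.14, −1.14 and −1.05, and each passed when every probe was tested on its own (adjusted p 0.0054 to 0.0434).

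Ndufa9, an accessory subunit close to the ubiquinone site, had 8.17, 8.47 and 8.41 in fat knockout and 8.33, 8.84 and 8.51 in fat control, against 9.0, 9.52 and 9.11 in spleen knockout and 9.63, 9.30 and 8.74 in spleen control. The difference was −0.76 (SE 0.228, 1.70-fold lower in fat, adjusted p = 0.0412). Ndufs7, a core subunit with an iron-sulphur cluster, had 7.24, 6.45 and 7.32 in fat knockout and 6.13, 6.44 and 7.41 in fat control, against 7.89, 8.02 and 7.59 in spleen knockout and 7.14, 8.03 and 8.14 in spleen control. The difference was −0.97 (SE 0.297, 1.96-fold lower in fat, adjusted p = 0.0453). In both genes the highest fat arrays reached above the lowest spleen array. Both calls were lost when single arrays were left out. For Ndufa9 this was so in 10 of the 12 cases, all but fat control replicate 2 and spleen control replicate 3. For Ndufs7 it was so in 9, all but fat knockout replicate 3, fat control replicate 3 and spleen control replicate 1.

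No other complex I subunit passed. Ndufs5-ps had the lowest value of all 82 genes (−1.60, adjusted p = 0.105), with fat arrays scattered between 5.12 and 9.07 and spleen arrays between 7.99 and 9.34. Ndufab1, the mitochondrial acyl carrier protein that is also a complex I subunit, differed by −1.0 (adjusted p = 0.062). Ndufb2, Ndufa13 and Ndufs6 had all 6 fat arrays below all 6 spleen arrays, with differences of −0.90, −0.46 and −0.63, and adjusted p of 0.112, 0.137 and 0.064. Among core subunits, Ndufs3 differed by −0.62 (adjusted p = 0.088) and Ndufv2, of the NADH-binding module, by −0.55 (adjusted p = 0.134). Ndufs1, the largest core subunit, stood at +0.04 (SE 0.397), the one complex I subunit above 0. Ndufb8, a membrane arm subunit, differed by −0.42 (adjusted p = 0.161).

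**Figure D3:**
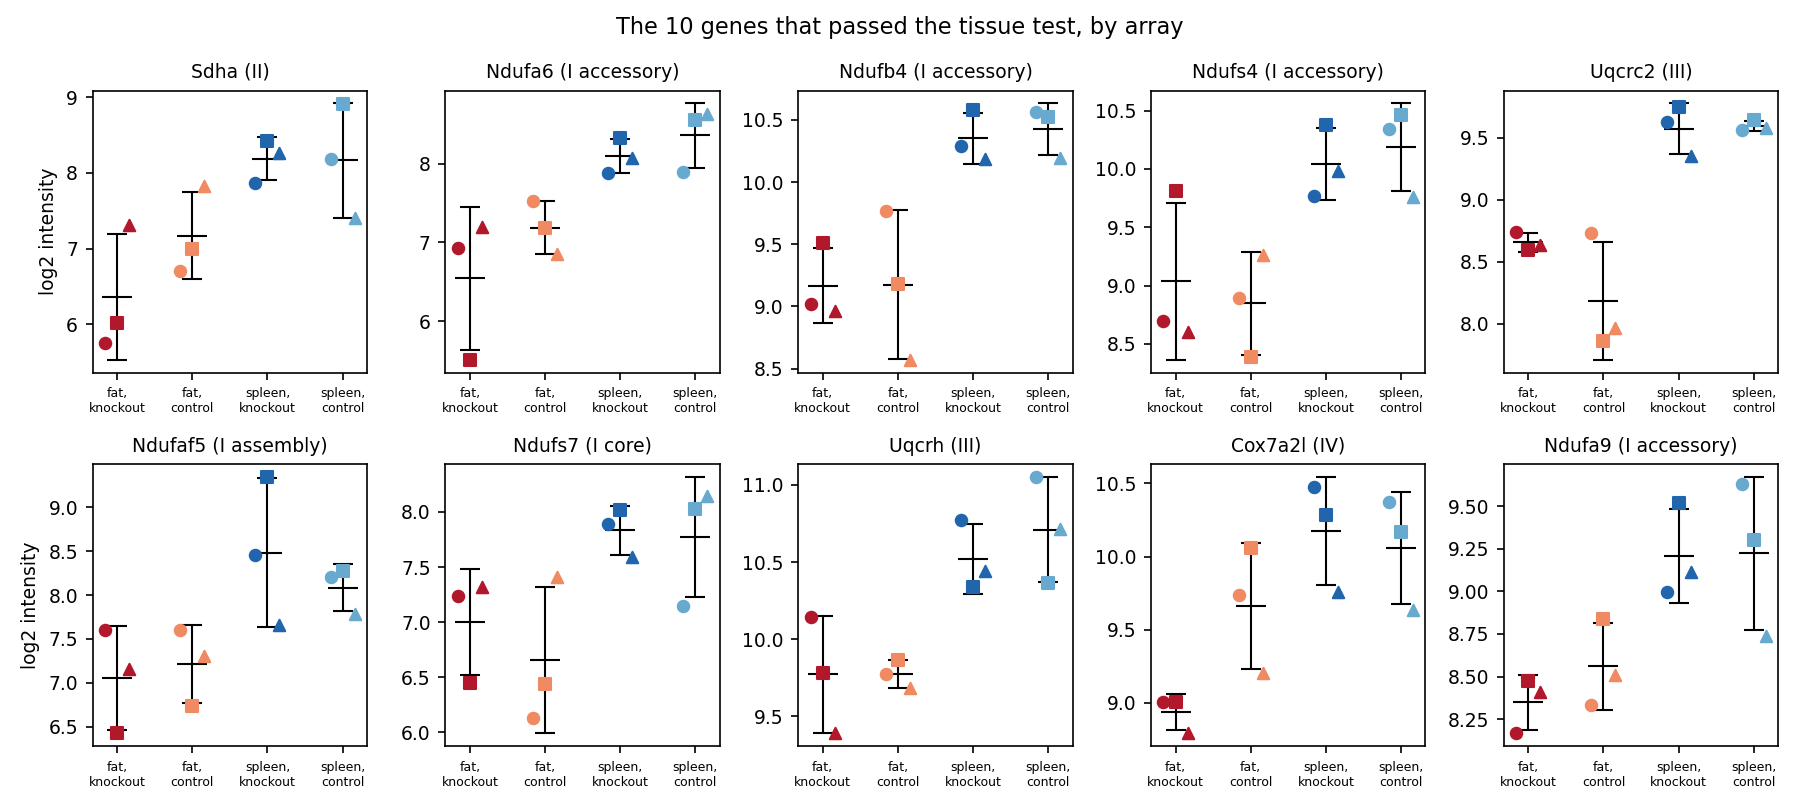
Log2 intensity of the 10 genes that were lower in fat than in spleen Tregs, by group (fat knockout, fat control, spleen knockout, spleen control). Points are arrays, with 1 symbol shape per slide, and bars are the mean and SD (n = 3). Fat points lie below spleen points throughout for Uqcrc2, Ndufb4, Ndufa6, Uqcrh and Ndufaf5, and overlap them in the other genes.

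Assembly factors of complex I build the complex without staying in it. All 7 measured were below 0, with a median of −0.57, and 3 of them (Ndufaf1, Ndufaf3 and Ndufaf7) were detected on 8 of the 12 arrays. The median was −0.27 without fat knockout replicate 1 and −0.35 without spleen control replicate 3, with 6 of 7 below 0 in each case, and −0.31 with median scaling. Ndufaf5, a methyltransferase-like factor that modifies Ndufs7 in human cells, had 7.60, 6.42 and 7.15 in fat knockout and 7.60, 6.73 and 7.31 in fat control, against 8.45, 9.35 and 7.66 in spleen knockout and 8.20, 8.27 and 7.78 in spleen control. The highest fat array and the lowest spleen array were close, and no array overlapped. The difference was −1.15 (SE 0.326, 2.22-fold lower in fat, adjusted p = 0.0328), and its second probe gave −1.25 without passing (adjusted p = 0.159). The call was lost with cyclic loess, median scaling and no filter, and in 6 of the 12 cases with 1 array left out (fat knockout replicate 2, fat control replicate 2, and replicates 1 and 2 of both spleen groups). Ndufaf1, which acts early in assembly of the membrane arm, differed by −1.18 (adjusted p = 0.067), but it was detected on 1 of 3 arrays in each fat group and on 3 of 3 in each spleen group.

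Complex II, succinate dehydrogenase, also belongs to the TCA cycle and is encoded wholly in the nucleus. All 4 subunits were below 0, with a median of −0.32. Sdha, the flavoprotein that oxidises succinate, had 5.76, 6.02 and 7.31 in fat knockout and 6.71, 6.99 and 7.82 in fat control, against 7.87, 8.42 and 8.26 in spleen knockout and 8.18, 8.91 and 7.40 in spleen control. The highest fat control array lay above the lowest spleen control array, which is on the same slide, and no other arrays overlapped. The difference was −1.41 (SE 0.353, 2.65-fold lower in fat, adjusted p = 0.0188), and it was −1.79, −2.16 and −0.27 on the 3 slides. Its partners differed less, with Sdhc, a membrane anchor, at −0.37 (SE 0.238), Sdhd, the other anchor, at −0.27 (SE 0.223) and Sdhb, the iron-sulphur subunit, at −0.22 (SE 0.312). None of the 3 passed, and the difference between Sdha and its partners was not tested. With median scaling the complex II median was +0.02.

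Nuclear respiratory factor 1 (NRF1) is known to drive many respiratory chain genes, and the promoters of Ndufb4 and Sdha are shown because both genes passed the tissue test and hold its motif repeatedly before their start. Sequences are those of RefSeq (GRCm38.p6), the 250 bases before the transcription start on the minus strand, with each match to the NRF1 motif GCGCANGCG on either strand in capitals. The Ndufb4 window lies at chr16:37654369-37654618 and the Sdha window at chr13:74350241-74350490.
Ndufb4: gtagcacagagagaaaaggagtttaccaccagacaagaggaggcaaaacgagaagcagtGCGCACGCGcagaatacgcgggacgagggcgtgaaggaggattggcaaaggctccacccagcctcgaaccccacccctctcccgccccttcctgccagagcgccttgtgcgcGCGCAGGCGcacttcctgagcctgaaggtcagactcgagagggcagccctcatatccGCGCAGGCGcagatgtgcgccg
Sdha: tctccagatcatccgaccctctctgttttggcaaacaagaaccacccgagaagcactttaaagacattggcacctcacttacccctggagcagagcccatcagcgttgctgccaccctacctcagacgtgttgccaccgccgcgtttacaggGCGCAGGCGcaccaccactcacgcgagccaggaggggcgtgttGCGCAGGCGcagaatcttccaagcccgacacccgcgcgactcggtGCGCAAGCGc
Each holds 3 matches, which begin 191, 79 and 22 bases before the start in Ndufb4 and 98, 55 and 10 bases before it in Sdha. RefSeq promoters, from 250 bases before to 50 after the start, were matched for 70 of the 82 genes, with 75 promoters in all. The NRF1 motif stood in 30.7% of these, against 6.25% of all 32851 promoters in the table. The motif AANATGGCG of the factor YY1 stood in 14.7% against 2.38%, the ETS motif CCGGAAGT in 5.33% against 3.89%, and CCAAT in 42.7% against 37.4%. All were searched on both strands, and matches of different motifs may overlap. The promoters of the whole table include those of genes not measured here, and the shares among all measured genes were not computed. Among the called genes, 4 of 9 promoters held the NRF1 motif and 3 of 9 the YY1 motif (Ndufa9, Ndufs4 and Ndufs7), against 19 of 66 and 8 of 66 for the other measured genes. A match describes the letters of the window, and whether a factor binds there was not measured.

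Complex III carries electrons from ubiquinol to cytochrome c. All 8 subunits were below 0, with a median of −0.41, and 4 were lower in all 6 pairs. Uqcrc2, a core subunit on the matrix side, had 8.74, 8.59 and 8.63 in fat knockout and 8.73, 7.86 and 7.97 in fat control, against 9.62, 9.75 and 9.35 in spleen knockout and 9.56, 9.64 and 9.58 in spleen control. The groups of the 2 tissues were far apart, and the difference of −1.16 (SE 0.216, 2.24-fold lower in fat, adjusted p = 0.0035) had the lowest adjusted p of the 82 genes. Uqcrh, the hinge subunit that contacts cytochrome c1, had 10.15, 9.78 and 9.39 in fat knockout and 9.77, 9.87 and 9.69 in fat control, against 10.77, 10.34 and 10.44 in spleen knockout and 11.05, 10.37 and 10.71 in spleen control. Its difference was −0.84 (SE 0.222, 1.79-fold lower in fat, adjusted p = 0.0239), and no fat array reached a spleen array. The call was lost without replicate 1 of spleen knockout or of spleen control. Uqcr10 differed by −0.36 (SE 0.215) and Cyc1, which is cytochrome c1, by −0.41 (SE 0.284), and neither passed. With median scaling the complex III median was −0.15, with 6 of 8 below 0.

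Cytochrome c, the mobile carrier between complexes III and IV, was above 0, as were single genes of complex I, complex IV and ATP synthase. Cycs had 8.88, 8.43 and 8.03 in fat knockout and 8.24, 9.13 and 8.49 in fat control, against 7.80, 7.71 and 8.24 in spleen knockout and 7.94, 7.80 and 8.28 in spleen control. The lowest fat arrays lay below the highest spleen arrays. The difference was +0.57 (SE 0.247, adjusted p = 0.144), and the gene's other probes gave +0.17 and −0.22, so its probes disagree.

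Complex IV reduces oxygen and contains subunits that exist as tissue isoforms. Of 11 genes, 8 were below 0, with a median of −0.29. Cox7a2l, also called SCAF1, which links complexes III and IV into a supercomplex in mice, had 9.01, 9.01 and 8.79 in fat knockout and 9.74, 10.06 and 9.20 in fat control, against 10.48, 10.28 and 9.76 in spleen knockout and 10.38, 10.17 and 9.63 in spleen control. The fat knockout arrays lay below all spleen arrays, and the fat control arrays overlapped the lower ones. The difference was −0.82 (SE 0.242, 1.76-fold lower in fat, adjusted p = 0.0394), and it lost the call in 9 of the 12 cases with 1 array left out, all but fat control replicate 2, spleen knockout replicate 3 and spleen control replicate 3. C57BL/6 mice, the strain used here, are known to carry a short form of this protein. Whether that form links the complexes in these cells was not measured.

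Other complex IV subunits showed smaller values. The isoforms found in most tissues were Cox4i1 at −0.29, Cox6a1 at +0.10 and Cox6b1 at −0.15, and their partner isoforms Cox4i2, Cox6a2 and Cox6b2 were below the filter. Cox7a2, the liver-type isoform, differed by −0.46 (SE 0.544), while Cox7a1, the heart and muscle isoform, stood at levels of 4.80, 4.45, 4.44 and 4.84 in the 4 groups, near background. Cox5a differed by −0.30, Cox5b by +0.05 and Cox6c by +0.03, and none of these passed. The complex IV median turned sign with scaling, at −0.09 with cyclic loess and +0.06 with median scaling, where 3 of 11 were below 0.

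ATP synthase had 16 measured genes and 0 calls, with 3 at an unadjusted p below 0.05. That share of 18.8% was below the share of all genes (3005 of 10025). Its median was −0.30, 13 of 16 were below 0 and 8 were lower in all 6 pairs. The catalytic subunits were near 0, with Atp5b at +0.03 (SE 0.217) and Atp5a1 at −0.07 (SE 0.209). Atp5d and Atp5c1, subunits of the central stalk, went to opposite sides, at +0.28 (SE 0.186) and −0.40 (SE 0.187). Atp5o, of the peripheral stalk, differed by −0.64 (adjusted p = 0.064). All 6 fat arrays lay below all 6 spleen arrays for Atp5c1 and Atp5o. Atp5g2 and Atp5g3 encode the same ring protein and differ in their import sequences. Atp5g2 differed by −0.86 (SE 0.286, adjusted p = 0.062) and Atp5g3 by −0.28 (SE 0.191). Atp5j2, a membrane subunit, differed by −0.18. Other settings gave calls here. Atp5c1, Atp5g2, Atp5j and Atp5o were called lower in fat with no background correction, with the authors' normalized table and with the trended, robust variance. Atp5g2 was called lower with the slide as a block (adjusted p = 0.038), and Atp5d was called higher with median scaling (+0.69, adjusted p = 0.0466). With cyclic loess the median of ATP synthase was −0.15, and with median scaling it was +0.01, with 7 of 16 below 0.

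**Figure D4:**
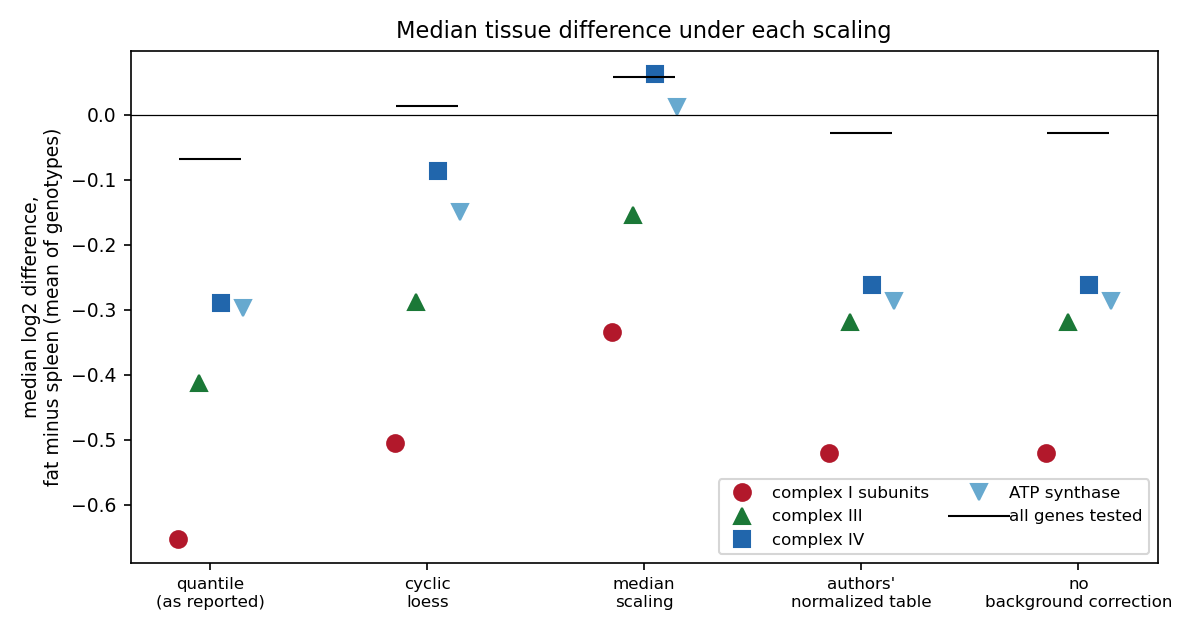
Median log2 difference, fat minus spleen with genotypes averaged, for complex I subunits, complex III, complex IV, ATP synthase and all genes tested, under 5 ways of processing the arrays. Complex I stays lowest, from −0.65 to −0.34 between quantile normalization and median scaling, and complex IV and ATP synthase move to +0.06 and +0.01 under median scaling.

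Many of these genes have more than 1 kept probe. Of the 28 with several, 22 had all probes lower in fat. In Atp5a1, Atp5mpl, Atp5pb, Cox5b and Cycs the probes had opposite signs. The gene value is that of the probe with the highest mean level.

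The lower levels in fat were seen in both genotypes. In knockout mice 71 of 82 genes were below 0, with a median of −0.42, against 72 of 82 and −0.45 in control mice. With median scaling the median was −0.011 in knockout mice and −0.24 in control mice. Of the 82 genes, 66 were lower in fat in both genotypes (80.5%) and 5 higher in both, against 39.1% and 31% of all genes. These comparisons share no arrays. Within 1 genotype few genes passed. Uqcrc2 was the one call in control mice, at −1.41 (SE 0.306, adjusted p = 0.018), where 6.44% of all genes were called, 2.78% lower and 3.66% higher. The call was lost when either of fat control arrays 2 and 3 or either of spleen control arrays 1 and 2 was left out (adjusted p up to 0.126 over all alternatives). In knockout mice 0 genes passed, against 5.78% of all genes (2.38% lower and 3.39% higher), with 15 of 82 at an unadjusted p below 0.05 (18.3%), against 19.5% of all genes. The lowest adjusted p there were those of Sdha (0.0550), Cox7a2l (0.0557) and Ndufa6 (0.0617). With the slide as a block, Ndufb4 also passed in control mice (adjusted p = 0.046) and Cox7a2l in knockout mice (adjusted p = 0.029).

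**Figure D5:**
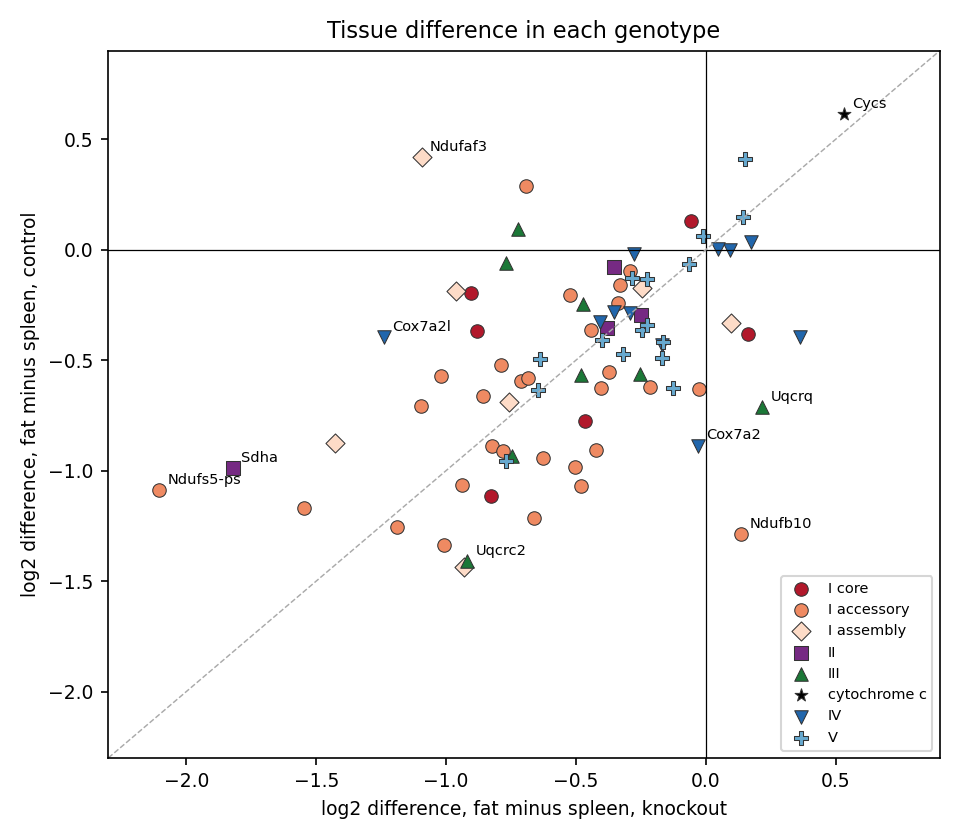
Log2 difference, fat minus spleen, in knockout mice (horizontal axis) and in control mice (vertical axis) for each of the 82 genes, marked by complex. Of these, 66 genes lie at the lower left, where both differences are below 0, and the dashed line marks equal differences.

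Between knockout and control Tregs no respiratory chain or ATP synthase gene passed the test in either tissue. In fat Tregs 0 of 82 genes passed between knockout and control, where 0.00998% of all genes did. An unadjusted p below 0.05 was seen for 2 of the 82, a lower share than that of all genes (695 of 10025). The median difference, knockout minus control, was −0.02, with 47 of 82 below 0, against 49.2% of all genes. The lowest value was −0.95 (Ndufs5-ps) and the highest +1.29 (Ndufb10). Ndufb10, a membrane arm subunit, had 9.60, 10.10 and 9.44 in fat knockout and 9.09, 6.86 and 9.33 in fat control. A single low control array, on the second slide, lay apart from the rest. The difference was +1.29 (95% interval 0.06 to 2.52, adjusted p = 0.706), and it was 0.51, 3.23 and 0.11 on the 3 slides. Ndufv2 differed by −0.76 (interval −1.48 to −0.05, adjusted p = 0.694), Sdha by −0.81 (interval −1.90 to 0.28) and Cox7a2l by −0.73 (interval −1.48 to 0.02). For Sdha and Cox7a2l the knockout was lower on each slide. Other members with large values were Ndufs3 at −0.67, Uqcrc1 at −0.68, Uqcrfs1 at −0.59, Ndufaf3 at −0.55, Atp5mpl at +0.47 and Cox7a2 at +0.39, and none passed.

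In spleen Tregs 0 of 82 genes passed, as did 0 of all genes, and 0 of 82 had an unadjusted p below 0.05, against 219 of all genes. The median was −0.06, with 54 of 82 below 0, against 49.6% of all genes. Uqcrq, a small complex III subunit, had the lowest value (−0.92, interval −2.78 to 0.94), with −3.06 on 1 slide and 0.18 and 0.11 on the others. Ndufaf3, a complex I assembly factor, had the highest (+0.97, interval −0.35 to 2.28), at 5.59, 6.16 and 6.46 in spleen knockout against 4.80, 5.21 and 5.29 in spleen control. The groups did not overlap for this gene, and its adjusted p was 1. Ndufaf2 (+0.90), Ndufb3 (−0.60), Ndufa10 (+0.54), Cox7a2 (−0.47) and Ndufs1 (+0.45) followed. The difference of the genotype effect between fat and spleen passed for 0 of 82 genes, 0 at an unadjusted p below 0.05 against 382 of all genes, and 42 of 82 were below 0, against 51.2% of all genes. Its values ran between −1.51 (Ndufaf3) and +1.42 (Ndufb10). The median SE of these genes in a comparison of 2 groups was 0.351. A difference as small as that SE would not pass. Nor did much larger ones, such as Ndufaf3 at +0.97 in spleen Tregs and Ndufb10 at +1.29 in fat Tregs. The 0 calls therefore do not exclude differences of about that size in single genes. With every alternative run, all 3 genotype comparisons kept 0 calls among these genes.

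Other mitochondrial lists were set beside these genes, in the same tissue comparison. Over all genes 8.41% were called lower and 7.27% higher, so a single call in a short list says little about that list. Of 8 respiratory chain and ATP synthase genes of the mitochondrial genome (ND1, ND4, ND4L, ND5, ND6, CYTB, COX2 and ATP6), 0 passed, 0 had an unadjusted p below 0.05, and the median was −0.11, with a range of −0.47 to +0.11. With median scaling their median was +0.08. Of 33 measured assembly factors outside the rule, 11 were lower and 0 higher, with a median of −0.58. Among them Sdhaf1 (−2.09) and Sdhaf4 mature complex II, and Cox10 (−1.72) and Coa3 (−1.59) serve complex IV. Sdhaf4 was detected on 2 of 6 fat arrays and 6 of 6 spleen arrays, and Cox10 on 4 of 6 and 6 of 6. Mitochondrial ribosomal proteins, which translate the mitochondrial genome, gave 18 lower and 0 higher of 74, with a median of −0.69, among them Mrpl10 (−2.36), detected on 4 of 6 fat arrays, and Mrpl1, detected on 1 of 6. With median scaling 7 of the ribosomal proteins were lower and 1 higher (median −0.43), and 8 of the assembly factors were lower (median −0.40). Import machinery gave 4 lower of 16, among them the chaperone Hspe1 (−1.28), and 2 were lower with cyclic loess, median scaling or no filter. Of 13 TCA cycle genes 1 was lower, Suclg1 (−0.89), with a median of −0.05 that turned to +0.13 with median scaling. Its call was lost with the slide as a block, with cyclic loess and with median scaling. Of the 6 pyruvate dehydrogenase genes 0 passed. Of 13 biogenesis genes (median −0.02), Mterf1a, detected on 3 of 6 fat arrays (−2.52), and Tfam (−1.21), which packages mitochondrial DNA, were lower, and Gabpb1 (+1.72) was higher. The lower calls were 0 with no filter and 1 with median scaling, no background correction, the authors' normalized table or the trended, robust variance. Of 8 antioxidant genes (median −0.39, 5 below 0) 1 was called, Gpx4, which reduces lipid peroxides, higher at +0.70. Of 7 uncoupling and nucleotide exchange genes (median −0.08, 4 below 0) 1 was called, the phosphate carrier Slc25a3, higher at +0.91. These lists were described by counts and medians alone, and no test compared them with the 82 genes.

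Markers of other cells also moved with tissue, in the comparison where 7.27% of all genes were called higher and 8.41% lower. Of 13 measured macrophage and monocyte genes, 8 were higher in fat, with a median of +2.78, among them Cd163 (+4.41) and Lyz2 (+3.90). Their mean level per array was 7.22 to 8.26 in fat knockout and 7.14 to 9.56 in fat control, against 5.33 to 5.77 in spleen knockout and 5.15 to 6.50 in spleen control. Of 6 measured T cell markers 4 were below 0 and the rest above. Called lower in fat were 3, Cd3d (−0.85), Cd3g (−0.73) and Cd3e (−0.72), and 0 were with median scaling. Of 5 Treg markers 3 were higher, Il2ra (+1.51), Ctla4 (+1.11) and Tnfrsf18 (+0.86), and Foxp3 differed by +0.74 without passing. Ikzf2 was the 1 Treg marker below 0. With the mean over the kept probes of a gene, 2 of the 5 were below 0 and 2 were called higher. Their median was then +0.48, against +0.86 with the probe used here. Fabp4, found in adipocytes and in macrophages, was detected on 6 of 6 fat arrays and 1 of 6 spleen arrays, while the adipocyte genes Adipoq, Plin1, Lep and Retn did not reach the filter. Of the B cell, endothelial, stromal and muscle or brown fat markers, 1 of 4, 2 of 4, 1 of 8 and 1 of 6 were measured, and 0 passed. The part of these cells in the lower level of the respiratory chain genes was not tested.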

How the data were processed

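RNA of Tregs was measured on 12 Illumina bead arrays, amplified and biotin-labelled, per the labels' protocols. The authors deposited bead intensity values of 45281 probes before normalization. Each value has a detection p-value beside it, as deposited and per the file headers. The deposited table of normalized intensity was used as an alternative. GenomeStudio is named in the submitters' processing notes, and its version is not given in the sources used here.

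Intensities were background-corrected with nec of limma 3.58.1 (R 4.3.3), which takes the background from the detection p-values and added an offset of 16. Quantile normalization followed, and values were turned to log2. Probes with a detection p-value below 0.05 on at least 3 arrays and 1 gene symbol in GEO's platform annotation were kept, and the probe with the highest mean stood for its gene, leaving 10025 genes. A limma model with 1 mean per group (residual degrees of freedom 8, prior 3.88) gave 6 comparisons. The fit was also run on simulated data with the same spread in all groups and no slide effect. That run does not cover the lower resemblance among fat arrays, and its outcome is not given here. The number of arrays limits the precision.

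The genes, lists and tests were chosen with earlier results of these data known, and the mitochondrial genome list was added after the files were seen. Named were every called gene, the 2 largest differences per complex in the tissue comparison and in each genotype comparison, isoform families, the gene with the highest mean per complex, and up to 4 called genes per list. Other genes that are named were chosen after their values were seen. The replicate numbers pair arrays whose names in the labels share a number, which was taken as the slide. Deviations from group means correlated between arrays of 1 slide at −0.05 to 0.35 (median 0.07) and between slides at −0.26 to 0.12 (median −0.04). Alternatives changed the background correction, scaling, filter, probe choice, values, arrays fitted, block and variance model, and left out each array in turn.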

Additional observations from a re-analysis of the deposited data

How the results depend on the processing

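The count of genes called between tissues, with genotypes averaged, was 10 and ranged from 5 to 12 with 1 array left out. It was 5 without spleen knockout replicate 1 and 6 without fat knockout replicate 2, spleen knockout replicate 2 or spleen control replicate 1. It was 5 with cyclic loess, 2 with median scaling (both higher in fat), 19 with an offset of 50, and 22 with each of no background correction, the authors' normalized table and a trended, robust variance. Except under median scaling, 0 of these genes were called higher. The share of all genes called under each setting is not set beside the counts in this section. A higher or lower count is therefore not by itself particular to these genes. Uqcrc2, Ndufb4, Ndufa6, Ndufs4 and Sdha kept their calls in 21 of 22 alternatives, Uqcrh in 18, Ndufaf5 in 13, Cox7a2l in 11, Ndufa9 in 10 and Ndufs7 in 9. With the replicate block for the slide, 14 genes were called with genotypes averaged, and none of the 10 was lost.

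In control mice the count was 1 and became 0 with median scaling or with only the 2 groups fitted, 2 with an offset of 50, no filter, the stricter filter (detection p below 0.01 on at least 6 arrays) or the replicate block, 3 with the mean of probes, and 5 with no background correction, the authors' table or the trended variance. It was 0 to 2 with 1 array left out, and 2 without fat knockout replicate 2 or 3 or fat control replicate 1. In knockout mice the count was 0 and became 1 with the replicate block, 2 with the stricter filter, 3 with the mean of probes or the trended variance, and 4 with an offset of 50, no background correction or the authors' table. It was 0 to 3 with 1 array left out, and 3 without fat knockout replicate 3 or fat control replicate 3. The genotype comparisons and their difference between tissues gave 0 calls under every alternative run, the replicate block included.

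The median tissue difference with genotypes averaged was −0.26 with cyclic loess and −0.13 with median scaling, and −0.46 to −0.40 with 1 array left out. In control mice it was −0.29 and −0.24 under those scalings, −0.36 with no background correction or the authors' table, and −0.53 to −0.39 with 1 array left out. In knockout mice it was −0.26 and −0.011, and −0.49 to −0.36. With median scaling the median of knockout minus control in spleen was −0.20 and that of the difference between tissues +0.18. With 1 array left out the medians were −0.072 to 0.016 in fat, −0.10 to −0.0048 in spleen and −0.021 to 0.073 for the difference. The cause of these moves was not tested. Probe signal near background limits Cox7a1, Ndufaf1, Ndufaf3 and Ndufaf7 (detected on 3 to 8 of the 12 arrays).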
